A study of Mus musculus with 6 samples.

Results

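The genes described here are 47 chromatin regulators: subunits of the SWI/SNF remodelers, ISWI and CHD remodelers, the Polycomb complexes PRC2 and PRC1, histone lysine methyltransferases, the core shared by the COMPASS methyltransferases, and the demethylase *Kdm1a*. They were taken by gene symbol from a table of 15266 genes, all 47 symbols were present, and all 47 passed the low-count filter that left 12891 genes for testing. The mRNA was measured in day 4 embryoid bodies (D4 EBs), floating aggregates in which mouse embryonic stem cells (mESCs) begin to form germ layers, grown in medium with serum and without LIF. Both lines came from W9.5 mESCs by CRISPR-Cas9 editing. The EVX1-Δfs line (clone 14) is 1 clone with small frameshift deletions on both alleles in the homeodomain-coding part of *Evx1*, whose RNA is still made, and the Del#3 line (*Evx1/Evx1as*Δ2.6kb) lacks the promoters of both *Evx1* and its antisense RNA *Evx1as*. EVX1 function is thus lost in both lines, and the comparison asks what the loss of *Evx1as* and of the locus DNA adds. Each line has 3 replicates, from 3 differentiations of both lines set up side by side, each on its own day. A shared replicate number was read as a shared day. The labels give replicate numbers only, and the study's methods describe the days in general and not for each library. No unedited line was analysed here.

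The libraries held between 9024579 and 15699124 reads on listed genes, of which the members took between 0.443% and 0.743%. The edited locus read as labelled: *Evx1* had 4023, 3132 and 2582 reads in EVX1-Δfs and 48, 28 and 31 in Del#3, and *Evx1as* had 879, 588 and 571 against 21, 22 and 30. The 8 markers of primitive streak and mesoderm summed to between 7485 and 10759 normalized counts per library (read counts divided by a size factor for each library), the 8 of pluripotency and epiblast to between 16514 and 27186, the 4 of definitive endoderm to between 2627 and 4295, the 4 of blood and endothelium to between 1172 and 1715, the 3 cardiac ones to between 90.8 and 194, and the 2 of neurectoderm to between 3.98 and 15.0. The 5 of visceral endoderm summed to 326 in Del#3 replicate 1 and to between 110 and 193 in the other 5 libraries. Sums can hide single markers: *Zfp42* gave 341 to 457 in EVX1-Δfs and 181 to 288 in Del#3. *Sox17* gave 715 to 800 and 518 to 647. Neither was called between the lines by the test used below, and the lines overlapped in the other markers. Of all genes tested, 1.8% likewise had lines that did not overlap with Del#3 lower. In bulk EBs, fewer cells of a type and less RNA per cell cannot be told apart.

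Chromatin regulators of this kind set which parts of the genome can be read. SWI/SNF, ISWI and CHD proteins use ATP to slide, space or evict nucleosomes. PRC2 methylates histone H3 at lysine 27 and PRC1 ubiquitinates histone H2A, and together they hold developmental genes silent in embryonic stem cells until lineage choice, while COMPASS enzymes methylate histone H3 at lysine 4 at active and poised promoters.

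Many of these proteins are very large, and the members' annotated transcripts, taken as the longest of each gene in GENCODE on NCBIM37 (mm9), run from 799 bases (*Dpy30*) to 13931 bases (*Mga*), with a median of 4934. Their GC content also differs, from 38.2% in *Mtf2* to 61.0% in *Setd1b*, with a median of 49.4%. The following 90-base stretches, from the middle of each gene's longest coding exon and with G and C in capitals, show how far long members differ in base composition. They belong to the pair of long low-GC members (*Pbrm1*, *Mga*) and the pair of long high-GC members (*Setd1b*, *Arid1a*) with the widest spread between libraries, and are written 5′ to 3′ on the coding strand.
Pbrm1: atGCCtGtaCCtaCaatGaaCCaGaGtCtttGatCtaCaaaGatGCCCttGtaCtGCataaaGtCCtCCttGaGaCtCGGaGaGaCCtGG
Mga: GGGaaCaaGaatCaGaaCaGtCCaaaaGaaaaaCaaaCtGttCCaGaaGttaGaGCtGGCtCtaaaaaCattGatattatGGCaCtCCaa
Setd1b: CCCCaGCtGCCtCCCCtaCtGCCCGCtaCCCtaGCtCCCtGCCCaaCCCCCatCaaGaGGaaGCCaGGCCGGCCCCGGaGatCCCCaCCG
Arid1a: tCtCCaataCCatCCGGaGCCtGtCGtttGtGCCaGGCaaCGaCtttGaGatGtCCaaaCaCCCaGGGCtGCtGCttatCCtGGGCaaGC

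The *Pbrm1* stretch lies at chr14:31880784-31880873 on the + strand in exon 18 and the *Mga* stretch at chr2:119773250-119773339 on the + strand in exon 17. The *Setd1b* stretch lies at chr5:123610463-123610552 on the + strand in exon 12 and the *Arid1a* stretch at chr4:133237064-133237153 on the - strand in exon 20. G and C make up 46.7% of the *Pbrm1* stretch and 37.8% of that of *Mga*, but 71.1% of that of *Setd1b* and 55.6% of that of *Arid1a*. Over the whole transcripts the shares are 41.8% and 42.2% against 61.0% and 56.7%.

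Between the lines, no member passed an adjusted p of 0.05 by limma (linear models on log2(normalized count + 1), adjusted over all genes tested), where 0.0155% of all genes tested did (2 genes, *Evx1* and *Evx1as*). The lowest log2 fold changes stood at -0.41 for *Pcgf6* and -0.35 for *Dpy30*, and the largest at 1.30 for *Pbrm1*, 1.24 for *Mga*, 1.18 for *Ash1l*, 1.03 for *Setd2* and 0.98 for *Chd9*, each as Del#3 against EVX1-Δfs. Over the alternatives described below, *Pbrm1* ran from 0.71 to 1.86, *Mga* from 0.58 to 1.48 and *Ash1l* from 0.75 to 1.49. *Setd2* ran from 0.51 to 1.45 and *Chd9* from 0.48 to 1.27. At an unadjusted p under 0.05, limma listed 4 members with more RNA in Del#3 (*Pbrm1*, *Chd9*, *Mga* and *Ash1l*; 0.83% of all genes) and 0 with less (0.202% of all genes). DESeq2 and edgeR, run on the whole reads recovered from the normalized counts, called 0 members each after adjustment (0.0233% and 0.0155% of all genes) and before it listed 5 and 4 with more RNA in Del#3 (1.19% and 0.954%) and 0 with less (0.14% and 0.163%).

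This short list changed with the library left out, and so did the share of all genes. Without EVX1-Δfs replicate 2 it held 0 members (0.465% of all genes), without Del#3 replicate 1 it held *Mga* alone (0.248%), and without EVX1-Δfs replicate 1 it held 9 (3.16%). With the replicate number as a block, so that each Del#3 library was set against the EVX1-Δfs library of the same number, limma again called 0 members (0.0233% of all genes), with a smallest adjusted p of 0.693, and listed 9 with more RNA in Del#3 at an unadjusted p under 0.05 (3.64% of all genes) and 0 with less (0.985%). edgeR with the block called 0 members too (0.0233%), and listed 9 with more (3.75%) and 0 with less (0.752%). DESeq2 with the block called 3, *Pbrm1*, *Mga* and *Setd2*, where it called 0.14% of all genes (18 genes), with adjusted p of 0.0380, 0.0380 and 0.0440, and it likewise listed 9 with more (2.79%) and 0 with less (0.419%).

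Of the 47 members, 35 had a log2 fold change above 0 (38 with TMM scaling and 40 with total reads), as did 50.4% of all genes, and the members' median was 0.18 against 0.00 for all genes. That median was 0.036 without EVX1-Δfs replicate 3, 0.36 without EVX1-Δfs replicate 1 and 0.088 after the length and GC correction described below. Without EVX1-Δfs replicate 3, *Arid1a*, *Arid2*, *Smarcd1*, *Chd7*, *Chd8*, *L3mbtl2*, *Setd1a*, *Setd1b* and *Dot1l* fell below 0 and *Ash2l* rose above it. All 3 same-numbered pairs read higher in Del#3 in 15 members (12.1% of all genes) and lower in 2, *Smarce1* and *Pcgf6* (11% of all genes). The lines did not overlap, with Del#3 higher, in *Mtf2*, *Mga* and *Ehmt2* (1.71% of all genes), and in 0 members with Del#3 lower (1.8%); the exact permutation test over 3 against 3 libraries cannot go below p = 0.1. For 25 members the 95% interval of the difference lay within 2-fold in either direction (61.1% of all genes) and for the other 22 it reached beyond it. With the block that number was 34 (76.2% of all genes).

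**Figure D1:**
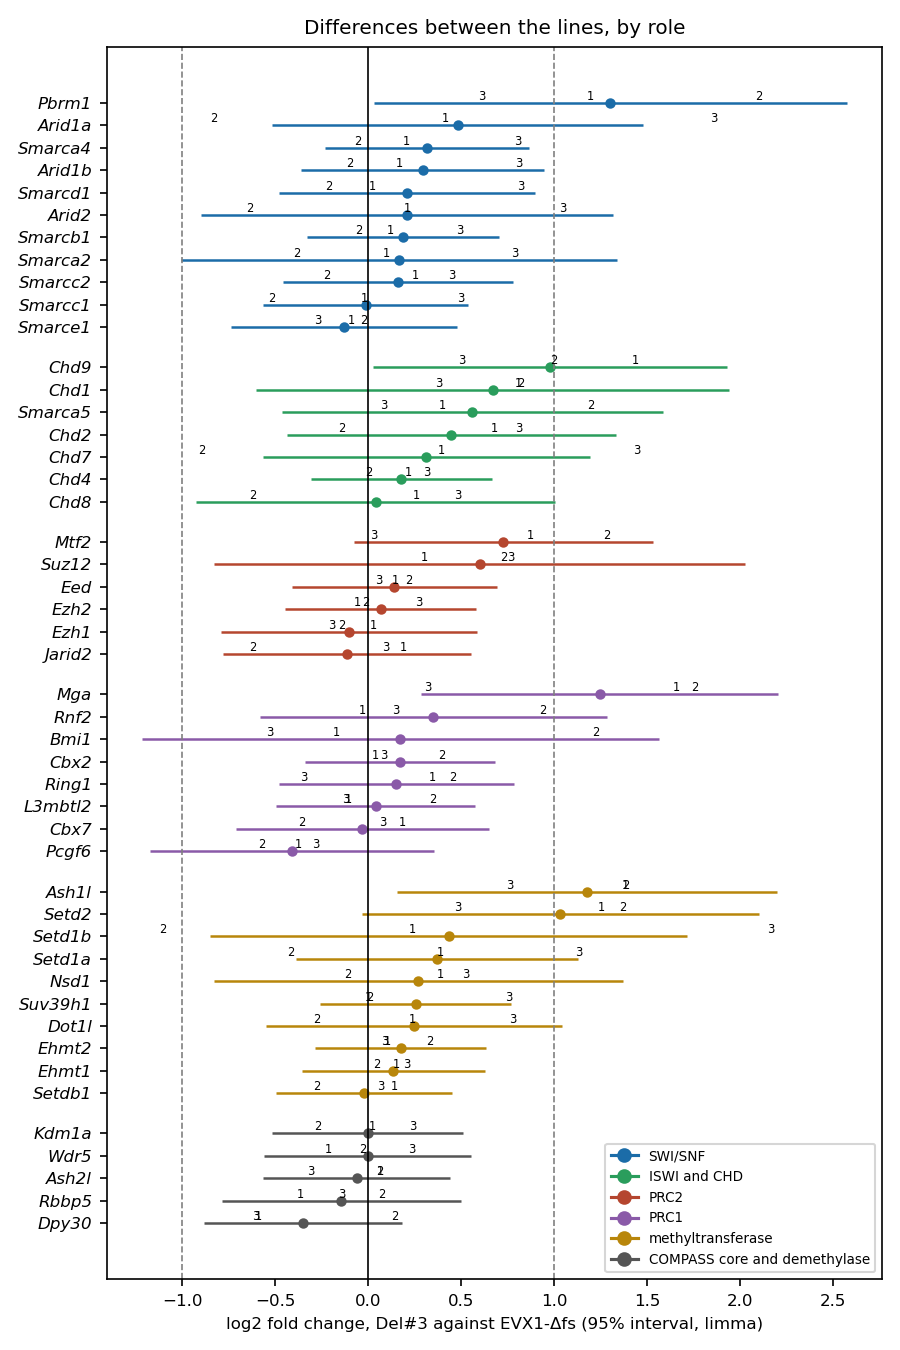
Log2 fold change of each member, Del#3 against EVX1-Δfs, with its 95% interval from limma (bars), the difference within each same-numbered pair (small numerals 1 to 3, the replicate number) and 2-fold marked by dashed lines, grouped by role. Pbrm1, Mga, Ash1l, Setd2 and Chd9 lie farthest to the right with wide intervals, while the 5 genes of the COMPASS core and demethylase group lie at or left of 0 (2 of the 5 move just right of it with TMM scaling).

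Among the 11 SWI/SNF members the median log2 fold change was 0.21, from -0.13 for *Smarce1* to 1.30 for *Pbrm1*. *Pbrm1*, the polybromo subunit that defines the PBAF form of the complex, gave 310, 62.1 and 147 normalized counts in EVX1-Δfs (replicates 1, 2 and 3 in order, here and below) and 709, 269 and 224 in Del#3. Each Del#3 library read above its same-numbered partner, but EVX1-Δfs replicate 1 read above Del#3 replicates 2 and 3, so the lines overlapped. The difference of 1.30 ± 0.57 (SE) had an unadjusted p of 0.0458 and an adjusted p of 1.0 by limma, and 1.29 ± 0.31 by DESeq2 with the block.

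The ARID subunits gave other patterns. *Arid1a*, the large subunit that marks the BAF form, gave 2976, 3552 and 998 normalized counts in EVX1-Δfs and 3961, 1998 and 3624 in Del#3. The low library was EVX1-Δfs replicate 3, and the pair of replicate 2 ran the opposite way to the others. The log2 fold change was 0.48, with a 95% interval from -0.52 to 1.48, and it was -0.09 without EVX1-Δfs replicate 3. *Arid2*, the partner of *Pbrm1* in PBAF, gave 756, 363 and 249 in EVX1-Δfs and 873, 233 and 516 in Del#3, where both replicate 1 libraries were the highest.

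The main ATPase and the core subunits were steadier. *Smarca4* (BRG1), the main ATPase of embryonic stem cells, gave between 3627 and 6155 normalized counts in EVX1-Δfs and between 5907 and 6331 in Del#3, a log2 fold change of 0.32 with an interval from -0.23 to 0.86. *Smarcb1*, a core subunit, gave 0.19 (interval -0.33 to 0.70) and *Smarcc1*, a scaffold subunit, -0.01 (interval -0.56 to 0.53). All 3 intervals lay within 2-fold, as they did for 7 of the 11 SWI/SNF members. The log2 fold changes of the remaining subunits were 0.17 for *Smarca2*, 0.29 for *Arid1b*, 0.16 for *Smarcc2*, 0.21 for *Smarcd1* and 0.21 for *Arid2*. *Smarca2*, the other ATPase, ran from 46.4 to 178 normalized counts with an interval from -1.01 to 1.34, and the interval of *Arid2* was -0.90 to 1.31.

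The 7 ISWI and CHD remodelers, all with transcripts above the members' median length, had the highest median log2 fold change of the 6 roles, 0.45. All 7 lay above 0, from 0.04 for *Chd8* to 0.98 for *Chd9*. That order of the roles is the one before the length and GC correction described below. After it *Chd9* gave 0.53, *Chd1* 0.29, *Chd2* 0.24, *Chd7* 0.11, *Chd4* 0.09, *Smarca5* 0.08 and *Chd8* -0.12. *Chd9*, a less studied member of the family, gave 235, 121 and 150 normalized counts in EVX1-Δfs and 637, 242 and 213 in Del#3, with an unadjusted p of 0.0452 by limma. *Chd1*, which binds methylated histone H3 lysine 4 and keeps the chromatin of embryonic stem cells open, gave 722, 179 and 299 in EVX1-Δfs and 1264, 317 and 389 in Del#3. In both genes each Del#3 library read above its partner, and replicate 1 read highest within each line.

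*Smarca5* (SNF2H), the ISWI ATPase that spaces nucleosomes, gave 1064, 295 and 546 normalized counts in EVX1-Δfs and 1403, 677 and 579 in Del#3. Its pairs all ran one way, with log2 differences from 0.08 to 1.19. *Chd4*, the ATPase of the NuRD complex, gave between 7957 and 10009 in EVX1-Δfs and between 9243 and 10085 in Del#3, which made it one of the least variable members, with a log2 fold change of 0.18 (interval -0.31 to 0.67). *Chd2*, *Chd7* and *Chd8* gave 0.45, 0.31 and 0.04, each with 1 pair, that of replicate 2, running the opposite way.

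The 6 PRC2 members had a median of 0.10. The catalytic and core subunits *Ezh2* and *Eed* gave 0.07 (interval -0.45 to 0.58) and 0.14 (interval -0.41 to 0.69). *Suz12*, the third core subunit, gave 795, 148 and 187 normalized counts in EVX1-Δfs and 981, 245 and 318 in Del#3. Its values split by replicate number (both replicate 1 libraries were the highest), and the log2 fold change of 0.60 had an interval from -0.83 to 2.03.

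Of the accessory subunits, *Mtf2*, a Polycomb-like protein that brings PRC2 to CpG islands, stood farthest from 0. It gave 675, 302 and 720 normalized counts in EVX1-Δfs and 1235, 737 and 733 in Del#3. The lines did not overlap, though EVX1-Δfs replicate 3 and Del#3 replicate 3 lay side by side, and the log2 fold change was 0.73 ± 0.36 (SE), with an unadjusted p of 0.0712 by limma. *Jarid2*, another targeting subunit, gave -0.11 (interval -0.78 to 0.55), and *Ezh1*, the second catalytic subunit, -0.10 (interval -0.79 to 0.58).

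Among the 8 PRC1 members the median was 0.16, from -0.41 for *Pcgf6* to 1.24 for *Mga*. Both of these proteins belong to the same variant complex, PRC1.6, in which MGA is the DNA-binding scaffold and PCGF6 the subunit that gives the complex its name. *Mga* gave 361, 148 and 380 normalized counts in EVX1-Δfs and 1141, 500 and 475 in Del#3. All Del#3 libraries read above all EVX1-Δfs libraries, by the least in replicate 3, and the log2 fold change of 1.24 ± 0.43 (SE) had the smallest unadjusted p of the members, 0.0161 by limma.

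*Pcgf6* gave 365, 203 and 233 normalized counts in EVX1-Δfs and 281, 136 and 191 in Del#3, lower in each pair, with overlapping lines and an interval from -1.17 to 0.35. *L3mbtl2*, a further PRC1.6 subunit, gave 0.04 (interval -0.49 to 0.57). The E3 ligases *Rnf2* (RING1B) and *Ring1* gave 0.35 (interval -0.58 to 1.28) and 0.15 (interval -0.48 to 0.78). *Bmi1*, a canonical PRC1 subunit, had only 9.38 to 56.8 normalized counts in any library and an interval from -1.22 to 1.56; its sign turned with DESeq2 (-0.09) and edgeR (-0.07). The chromodomain proteins *Cbx2* and *Cbx7*, which read the mark of PRC2, gave 0.17 (interval -0.34 to 0.68) and -0.03 (interval -0.71 to 0.65).

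The 10 lysine methyltransferases had a median of 0.26. *Ash1l*, which acts on histone H3 lysine 36 and opposes Polycomb, gave 147, 52.7 and 110 normalized counts in EVX1-Δfs and 383, 139 and 187 in Del#3. *Setd2*, which trimethylates the same lysine behind RNA polymerase II, gave 581, 203 and 298 in EVX1-Δfs and 1385, 525 and 415 in Del#3. Every pair read higher in Del#3 in both genes. EVX1-Δfs replicate 1 read above Del#3 replicate 2 in *Ash1l* and above Del#3 replicates 2 and 3 in *Setd2*, so the lines overlapped. By limma the unadjusted p were 0.0278 and 0.0563.

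*Nsd1*, another enzyme of lysine 36, gave 845, 321 and 330 normalized counts in EVX1-Δfs and 1108, 297 and 474 in Del#3, a log2 fold change of 0.27 (interval -0.83 to 1.37). *Setd1b*, a COMPASS catalytic subunit, gave 420, 376 and 88.6 in EVX1-Δfs and 496, 174 and 400 in Del#3, with the lowest value in EVX1-Δfs replicate 3 and pair differences from -1.11 to 2.16. *Setd1a*, its paralog, gave 0.37, and *Dot1l*, the enzyme of histone H3 lysine 79, gave 0.25, both with EVX1-Δfs replicate 3 as the lowest library. The lysine 9 enzymes had narrower intervals: *Setdb1* gave -0.02 (interval -0.50 to 0.45), *Ehmt1* 0.13 (interval -0.36 to 0.63), *Ehmt2* 0.17 (interval -0.29 to 0.64) and *Suv39h1* 0.25 (interval -0.26 to 0.77).

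In the group of the COMPASS core (*Wdr5*, *Ash2l*, *Rbbp5* and *Dpy30*) and *Kdm1a*, the lysine 4 demethylase LSD1, the median was -0.06 and 0 of 5 lay above 0, or 2 of 5 with TMM scaling or total reads. *Kdm1a* stood at -0.00, with 2327, 3353 and 2463 normalized counts in EVX1-Δfs and 2361, 2776 and 2909 in Del#3, and its sign turned with TMM scaling (0.02). *Dpy30*, the shortest transcript of the 47, gave 767, 622 and 773 in EVX1-Δfs and 508, 687 and 507 in Del#3, with an interval from -0.88 to 0.18. *Wdr5*, *Ash2l* and *Rbbp5* gave -0.00, -0.06 and -0.14. All 5 intervals lay within 2-fold, and all 5 transcripts are shorter than the members' median.

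More members differed between replicate numbers than between the lines. In a model with line and replicate number, limma's F-test across the 3 replicate numbers (read as days) called 6 members (4.24% of all genes tested): *Suz12*, *Chd1*, *Nsd1*, *Setd2*, *Pbrm1* and *Smarca5*. There were 14 at an adjusted p under 0.1 (12.4% of all genes) and 21 at an unadjusted p under 0.05 (27.7% of all genes). The adjusted p ran from 0.0225 for *Suz12* and *Chd1* to 0.0475 for *Smarca5*. In 23 members both replicate 1 libraries read above the other 4 (22.2% of all genes), and in 4 members, *Ehmt1*, *Wdr5*, *Ash2l* and *Kdm1a*, both read below them (22.7% of all genes). edgeR called 6 members between days (3.58% of all genes) and DESeq2 15 (10.1%). Leaving out 1 library moved the members and all genes together. Without EVX1-Δfs or Del#3 replicate 1 the number was 3 (1.5% and 1.64% of all genes), without EVX1-Δfs replicate 2 or 3 it was 17 (17.1% and 19%), and without Del#3 replicates 2 and 3 it was 16 and 23 (11.6% and 25.2%). Day of differentiation, library preparation and sequencing run cannot be told apart here. Across the members, deviations of same-numbered libraries from their line means correlated at 0.90, 0.28 and -0.30 for replicates 1 to 3. EVX1-Δfs replicate 2 correlated at 0.56 with Del#3 replicate 3, and EVX1-Δfs replicate 3 at 0.40 with Del#3 replicate 2. Whether a replicate number marks a shared day was not tested.

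**Figure D2:**
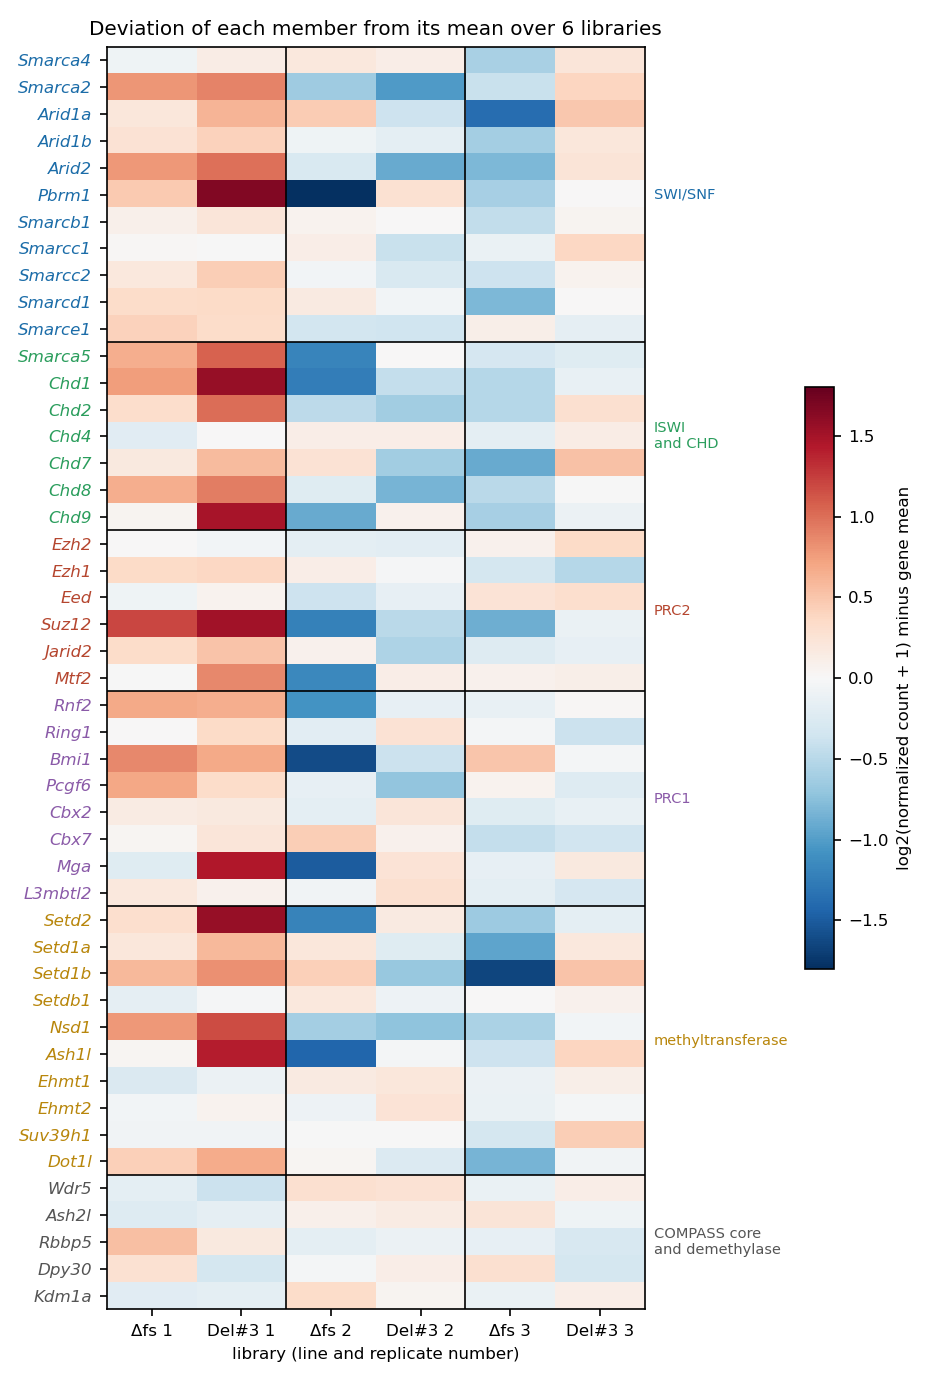
Deviation of each member from its own mean over the 6 libraries, on the log2(normalized count + 1) scale, with libraries ordered by replicate number and genes by role; Δfs stands for EVX1-Δfs. Del#3 replicate 1 is the highest library for 26 of the 47 members, EVX1-Δfs replicate 2 the lowest for 12 and EVX1-Δfs replicate 3 the lowest for 14.

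The libraries that stood apart did so for different members. Del#3 replicate 1 was the highest of the 6 libraries for 26 members (22% of all genes) and the lowest for *Wdr5* alone (23.7% of all genes). The visceral endoderm markers also summed highest there (326), and their part in the members' values was not tested. EVX1-Δfs replicate 2 was the lowest for 12 members (16.1% of all genes), among them *Pbrm1*, *Chd1*, *Chd9*, *Suz12*, *Mtf2*, *Mga*, *Setd2* and *Ash1l*. EVX1-Δfs replicate 3 was the lowest for 14 (18.3% of all genes), among them *Smarca4*, *Arid1a*, *Chd7*, *Setd1a*, *Setd1b* and *Dot1l*. No member is on both lists, since only 1 library can be the lowest of a gene.

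Transcript length and GC content ran with these differences. Members at or above the median length (24, from *Smarcc2* at 4934 bases) had a median log2 fold change of 0.31, and the 23 shorter ones (up to *Setdb1* at 4658 bases) 0.07, a gap of 0.25. All tested genes divided at the same length gave 0.14 (2424 genes) and -0.02 (9811 genes), a gap of 0.17. The gap of the members was 0.64 without Del#3 replicate 2 and 0.49 without EVX1-Δfs replicate 1, but 0.13 without Del#3 replicate 1 and 0.04 without EVX1-Δfs replicate 3. In single libraries, the median deviation of long members less that of short ones was 0.18, -0.06 and -0.43 in EVX1-Δfs and 0.68, -0.26 and 0.19 in Del#3. These 6 values ranged over 1.10, and those of all tested genes at the same length over 0.72.

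Dividing the long members again by the members' median GC content, a step chosen after the values were seen, told the low libraries apart. The 13 long low-GC members, which include *Pbrm1*, *Mga*, *Ash1l*, *Setd2*, *Chd9*, *Chd1*, *Smarca5* and *Nsd1*, had a median log2 fold change of 0.56, which was 1.03 without EVX1-Δfs replicate 1, 0.87 and 0.81 without Del#3 replicates 2 and 3, 0.21 without EVX1-Δfs replicate 2, 0.06 without Del#3 replicate 1 and 0.24 after a loess correction of each library for length and GC content. They held 4 of the 4 members with an unadjusted p under 0.05 by limma, 7 of the 9 in the fit with the block and 5 of the 6 that differed between days. Their median deviation was 1.17 in Del#3 replicate 1 and -0.91 in EVX1-Δfs replicate 2. EVX1-Δfs replicate 2 was the lowest library in 7 of them and EVX1-Δfs replicate 3 in 0, and Del#3 replicate 1 was the highest in 12.

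The 11 long high-GC members (*Smarca4*, *Smarca2*, *Arid1a*, *Arid1b*, *Smarcc2*, *Chd4*, *Chd7*, *Setd1a*, *Setd1b*, *Ehmt1* and *Dot1l*) gave a median of 0.29, which was 0.01 without EVX1-Δfs replicate 3, 0.49 without EVX1-Δfs replicate 1, 0.16 and 0.45 without Del#3 replicates 1 and 2, and 0.11 after that correction, and 0 of them had an unadjusted p under 0.05 in either limma fit. Here the low library was EVX1-Δfs replicate 3, with a median deviation of -0.61 and the lowest value in 8 of the 11, while EVX1-Δfs replicate 2 stood at 0.16 and was the lowest in 0. The highest library reached at least 4 times the lowest in 11 of the 47 members (10.6% of all genes), of which 7 are long low-GC members. It exceeded the lowest by a median of 4.75 times in long low-GC members, 2.80 times in long high-GC members, 2.23 times in the 10 short low-GC members and 1.60 times in the 13 short high-GC members. *Suz12* and *Mtf2* are the short low-GC members among the 9 of the fit with the block.

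**Figure D3:**
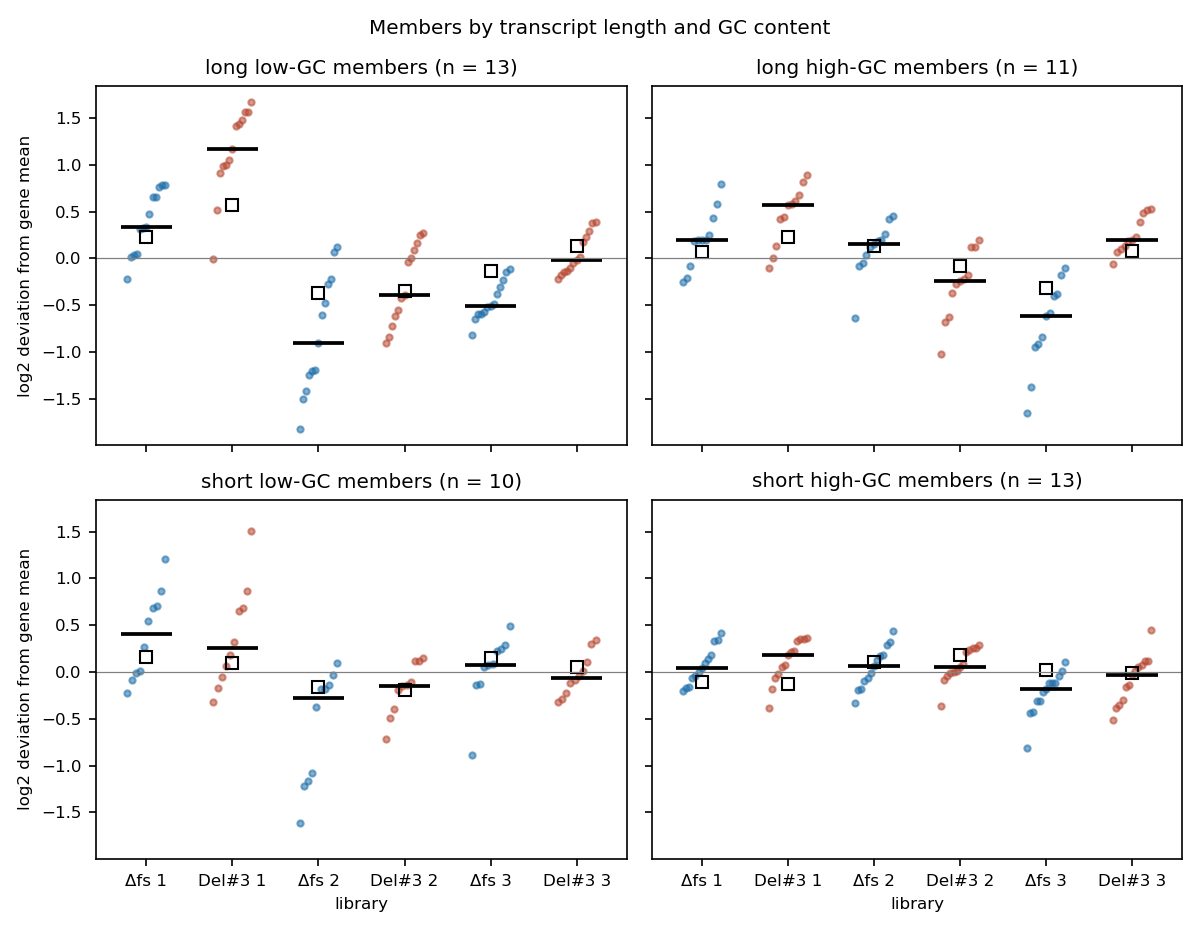
Deviation from the gene's mean over 6 libraries (log2 scale) for members divided at their median transcript length and median GC content; points are members, bars their median, and open squares the median of all tested genes in the same range of length and GC. Long low-GC members dip in EVX1-Δfs replicate 2 and peak in Del#3 replicate 1, long high-GC members dip in EVX1-Δfs replicate 3, and the squares of these 2 sets do so over a smaller range.

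All tested genes in the long low-GC and long high-GC ranges had these lows and peaks too, over a smaller range. In the short high-GC range they did not follow the members: the median deviation in Del#3 replicate 1 was 0.18 for the members and -0.12 for all genes. Among the 1353 long low-GC genes tested, the median deviation was 0.57 in Del#3 replicate 1 and -0.37 in EVX1-Δfs replicate 2. Del#3 replicate 1 was the highest library in 54.5% of these genes and EVX1-Δfs replicate 2 the lowest in 37.8%, 14.7% differed between days, and 19.7% had an unadjusted p under 0.05 with more RNA in Del#3 in the limma fit with the block. The 1056 long high-GC genes gave 0.23 and 0.13 in those libraries, -0.32 in EVX1-Δfs replicate 3, which was the lowest in 49.4%, and 0.76% with such a p. Of the 13 long low-GC members, 7 had such a p. Across the 47 members, the deviation in EVX1-Δfs replicate 2 had a Pearson correlation of 0.74 with GC content, and those in Del#3 replicate 1 and EVX1-Δfs replicate 3 had 0.67 and -0.56 with log2 transcript length. Over 11992 genes the same values were 0.56, 0.47 and -0.37. These genes share libraries and are not independent replicates.

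After a loess correction of each library for length and GC content, fitted over 11992 genes and used with the block, 5 members kept an unadjusted p under 0.05 with more RNA in Del#3 (1.85% of all genes), namely *Pbrm1*, *Chd9*, *Mga*, *Setd2* and *Ash1l*, and 0 had less (2.24%). Their log2 fold changes became 0.83 for *Pbrm1*, 0.75 for *Ash1l*, 0.70 for *Setd2*, 0.58 for *Mga* and 0.53 for *Chd9*. *Mtf2*, *Chd1*, *Suz12* and *Smarca5* became 0.27, 0.29, 0.32 and 0.08 and no longer had such a p. No member passed the adjusted threshold (0.0167% of all genes), the smallest adjusted p of any member being 0.999, and the gap between long and short members narrowed from 0.25 to 0.10. Between days, 3 members remained past the threshold by limma after the correction (3.72% of all genes): *Suz12* and *Chd1*, called before it too, and *Smarca2*, which was not.

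**Figure D4:**
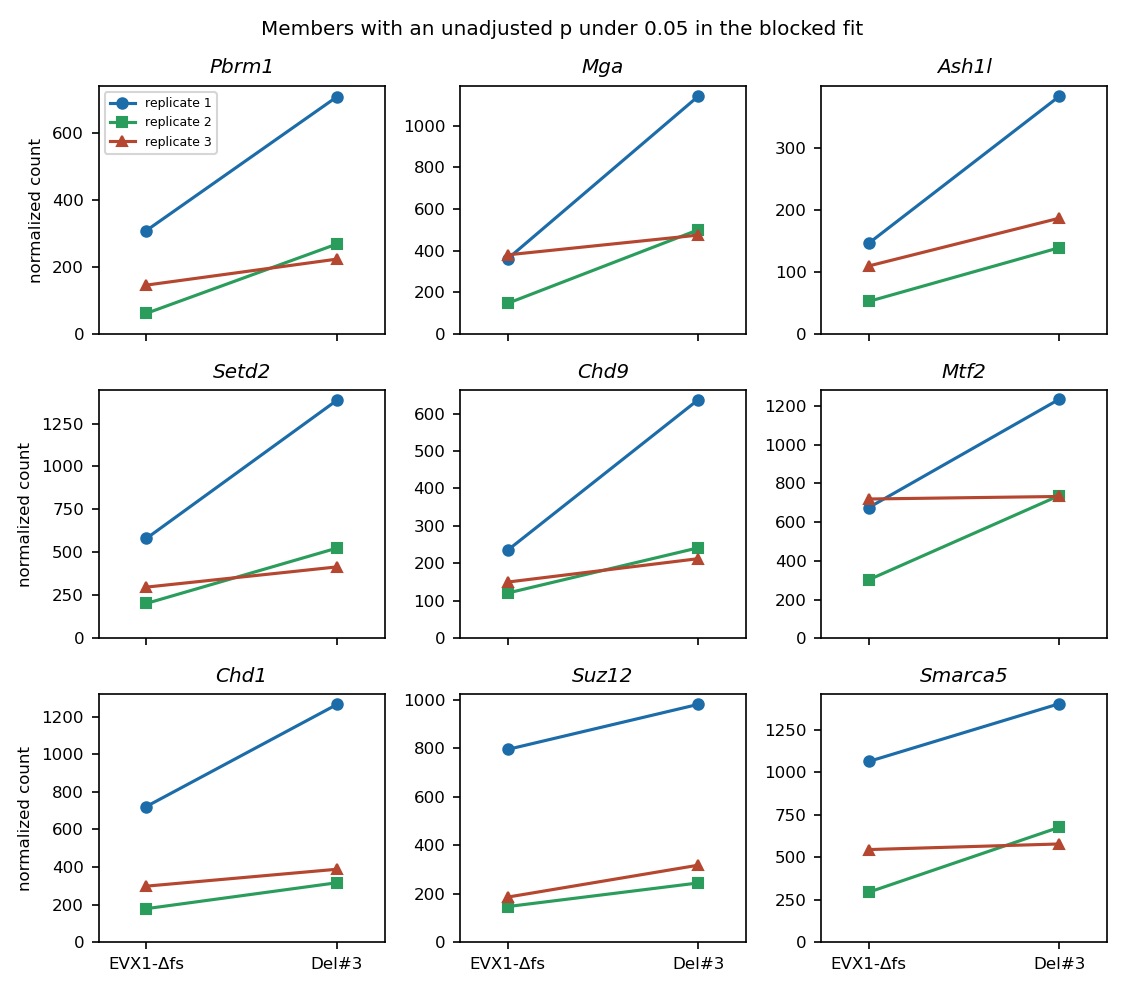
Normalized counts of the 9 members with an unadjusted p under 0.05 in the limma fit with the replicate block; each line joins the EVX1-Δfs and Del#3 libraries of the same number. Replicate 1 gives the highest Del#3 value in all 9, and the line of replicate 3 is nearly flat for Mtf2 (720 and 733) and Smarca5 (546 and 579).

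Levels were compared between genes only as normalized counts per kb of transcript. Over the 6 libraries *Chd4* was the highest at 1380 per kb, followed by *Ash2l* at 1244 and *Smarcb1* and *Kdm1a* at 892 and 891. Neither pair of neighbours in this order, *Chd4* and *Ash2l* (1299 ± 170 and 1274 ± 201.1 in EVX1-Δfs, SD, n = 3) nor *Smarcb1* and *Kdm1a* (839 ± 163 and 896 ± 184), differed beyond their spread in EVX1-Δfs; in Del#3 *Chd4* and *Ash2l* gave 1461 ± 70.2 and 1214 ± 142. *Bmi1* was the lowest at 9.89, below *Ash1l* at 15.1 and *Smarca2* at 18.3. *Ash1l* gave 9.14 ± 4.19 in EVX1-Δfs and 21.0 ± 11.5 in Del#3 (SD, n = 3), so the order of these low genes is within their spread.

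In 7 of 8 pairs of paralogs, 1 paralog exceeded the other in all 6 libraries. *Smarca4* exceeded *Smarca2*, the alternative ATPase, by 52.7-fold per kb over all libraries, with log2 ratios of 5.64 ± 0.86 in EVX1-Δfs and 5.80 ± 0.99 in Del#3 (SD, n = 3). *Ezh2* exceeded *Ezh1* by 9.95-fold, *Arid1a* exceeded *Arid1b* by 9.25-fold, *Setd1a* exceeded *Setd1b* by 9.03-fold, *Smarcc1* exceeded *Smarcc2* by 5.14-fold and *Cbx2* exceeded *Cbx7* by 3.73-fold. *Ehmt1* stood at 0.607 times *Ehmt2*. *Rnf2* and *Ring1* were the pair without an order, with log2 ratios from -1.11 to 0.47. The two-sided exact permutation p of the difference in ratio between the lines ran from 0.6 to 0.8 over the 8 pairs (0.8 after adjustment over them). With 3 against 3 libraries this test cannot go below 0.1, so it could call no pair.

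**Figure D5:**
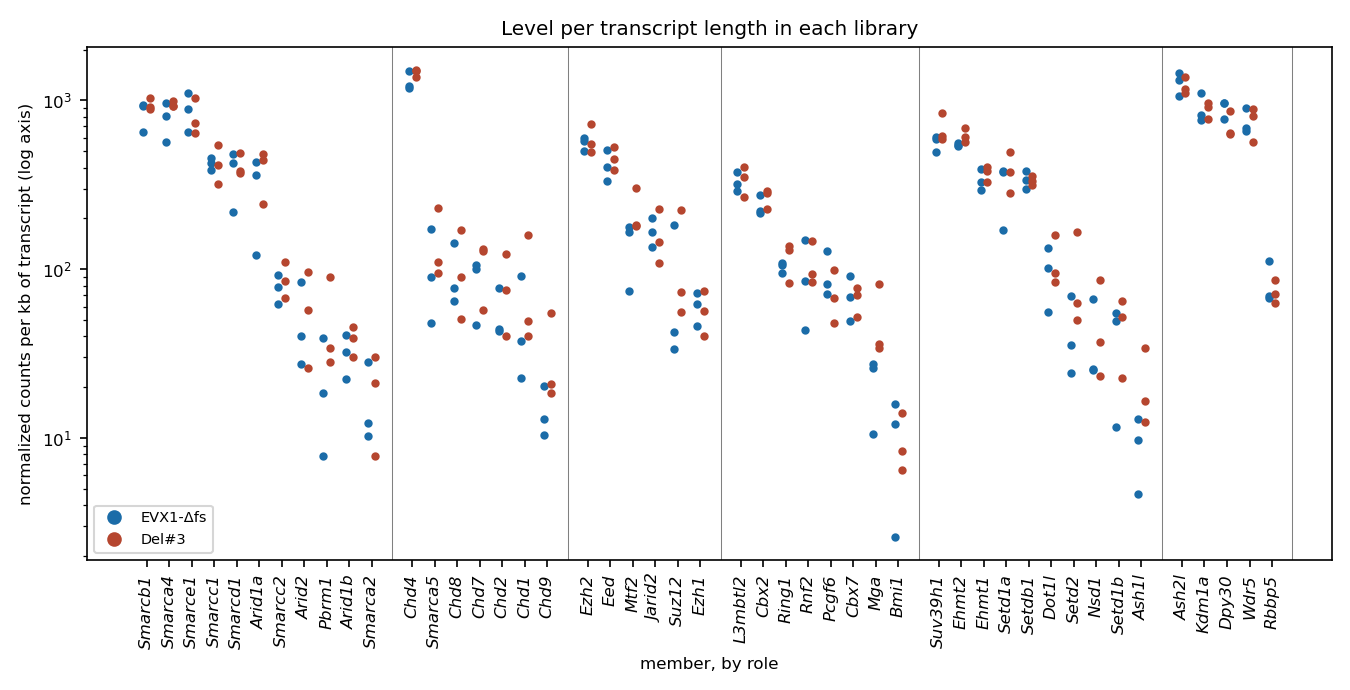
Normalized counts per kb of the longest annotated transcript (log axis) for each member in each of the 6 libraries, by role and then by mean level; blue points are EVX1-Δfs and red points Del#3. Chd4 and Ash2l lie highest, Bmi1, Ash1l and Smarca2 lowest, and the colours overlap in all members but Mtf2, Mga and Ehmt2.

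A further list of 101 symbols of other chromatin regulators, some of them alternative names of 1 gene, was set beside the members. Of these symbols 92 were in the table and tested. limma called 0 of the 92 between the lines without the block (0.0155% of all genes) and with it (0.0233%), as did DESeq2 without it (0.0233%) and with it (0.14%). At an unadjusted p under 0.05, 1 had more RNA in Del#3 (*Atrx*, a remodeler that places histone H3.3) and 0 had less (0.83% and 0.202% of all genes), and with the block 4 had more (*Atrx*, *Mll3*, *Kdm5a* and *Kdm6a*) and 0 less (0.985% of all genes). The 4 of 92 stand near the share of all genes in that fit, 3.64%. *Atrx* gave 249, 76.2 and 411 normalized counts in EVX1-Δfs and 1542, 763 and 198 in Del#3, so the pair of replicate 3 ran the opposite way. All 4 have low-GC transcripts longer than the members' median. The median log2 fold change of the 92 was 0.14, beside 0.18 for the members and 0.00 for all genes.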

How the data were processed

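mRNA-seq libraries of D4 EBs were analysed, 3 from EVX1-Δfs and 3 from Del#3. According to the study's methods, the authors selected poly(A) RNA, sequenced it on the Ion Proton, aligned the reads to the mouse genome (mm9; TopHat2, with TMAP as the second aligner), counted per gene by HTSeq and compared lines by DESeq2, both at standard settings. The deposited signal values are counts divided by a size factor per library. They were whole multiples of 1 step in 100% of values within 0.1 reads, which gave back the reads. A size factor adjusts for depth alone, so any difference between libraries in their yield of long or GC-rich transcripts stays in the values.

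Values were tested on the log2(normalized count + 1) scale with limma 3.58.1 (trend, R 4.3.3) over 12891 genes that passed filterByExpr of edgeR 4.0.16 (minimum count 10), with Benjamini-Hochberg adjustment over all of them and a threshold of 0.05. DESeq2 1.42.0, edgeR and limma with the replicate number as a block were alternatives, as were TMM and total-read scaling, pseudocounts of 0.1 and 5, other filters, each library left out in turn, and a loess correction (span 0.3) of each library's log2 values on transcript length and on GC content. The limma fits with and without the block, DESeq2 and edgeR without it, and the tests between days were tried on simulated data. DESeq2 and edgeR with the block and the length and GC correction were not. The design describes side-by-side differentiations on separate days, and same-numbered libraries were taken as 1 of these, which it does not state library by library. Deviations of same-numbered libraries from their line means correlated at 0.74, 0.32 and -0.05 over all genes tested for replicates 1 to 3. Lengths, GC content and coordinates came from GENCODE vM1 on NCBIM37, which matched all 47 members by symbol.

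The members, roles and lists were chosen with earlier results of these data known. Genes named were those called by any tool, those with the smallest p between lines and between days, the paralog pairs, the longest and shortest, the highest and lowest per kb, and the extremes of each role; *Arid2*, *Chd2*, *Chd7*, *Dot1l*, *L3mbtl2*, *Suv39h1*, *Wdr5*, *Rbbp5*, *Smarcd1* and the 4 non-members with a small p were named after their values were seen. Differentiations on separate days are biological replicates of 1 clone each, so p-values measure the spread between differentiations and not between clones.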

Additional observations from a re-analysis of the deposited data

How the results depend on the processing

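With the replicate number as a block, 0 members were called by limma and by edgeR and 3 by DESeq2 (*Pbrm1*, *Mga* and *Setd2*), against 0 without it; the members with an unadjusted p under 0.05 numbered 9 in each of the 3 fits with the block (3.64%, 2.79% and 3.75% of all genes by limma, DESeq2 and edgeR) and 2 after scaling to total reads (0.69% of all genes), against 4 (0.83%), and from 0 to 9 with 1 library left out. Across the 47 members the deviations of same-numbered libraries correlated at 0.90, 0.28 and -0.30 for replicates 1 to 3, while EVX1-Δfs replicate 2 correlated at 0.56 with Del#3 replicate 3 and EVX1-Δfs replicate 3 at 0.40 with Del#3 replicate 2. Members called between days numbered 15 by DESeq2 (10.1% of all genes), 14 at an adjusted p under 0.1 (12.4%), 3 after the length and GC correction (3.72%), and from 3 to 23 with 1 library left out (1.5% to 25.2%), against 6 (4.24%). The gap in log2 fold change between long and short members ran from 0.041 to 0.64 with 1 library left out, and the spread of that gap between libraries was 1.55 within low-GC members, 0.83 within high-GC members and 0.37 after the length and GC correction, against 1.10. The median of the members kept its sign under every alternative run, between 0.036 and 0.36. The cause of these shifts was not tested.

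Of the 47 members, 20 kept the sign of their log2 fold change in all alternatives, *Pbrm1*, *Mga*, *Ash1l*, *Setd2*, *Chd9* and *Mtf2* among them, and 69 of 845 single values turned. *Smarcc1* turned to 0.017 with DESeq2, 0.039 with edgeR, 0.0064 with edgeR and the block, 0.0058 with TMM and 0.019 with total reads, *Kdm1a* to 0.017 with edgeR and the block, 0.017 with TMM, 0.019 with the correction and 0.030 with total reads, and *Bmi1* to -0.091 with DESeq2, -0.066 with edgeR and -0.098 with the correction. With total reads *Cbx7* turned to 0.00085 and *Setdb1* to 0.010, and with the correction *Chd8* turned to -0.12, *Nsd1* to -0.11, *Arid2* to -0.076, *L3mbtl2* to -0.030 and *Ash2l* to 0.0018. *Wdr5* turned to 0.0066 with DESeq2, 0.021 with edgeR, 0.016 with edgeR and the block, 0.017 with TMM, 0.029 with total reads and 0.028 with the correction. With 1 library left out the ranges that cross 0 were -0.24 to 0.72 for *Smarca2*, -0.087 to 0.83 for *Arid1a*, -0.21 to 0.18 for *Smarcc1*, -0.024 to 0.34 for *Smarcc2*, -0.33 to 0.047 for *Smarce1*, -0.41 to 0.47 for *Chd8*, -0.090 to 0.18 for *Ezh2*, -0.31 to 0.12 for *Ezh1*, -0.011 to 0.30 for *Eed*, -0.0045 to 1.35 for *Suz12*, -0.40 to 0.13 for *Jarid2*, -0.10 to 0.78 for *Rnf2*, -0.59 to 0.65 for *Bmi1*, -0.25 to 0.18 for *Cbx7*, -0.015 to 0.57 for *Setd1a*, -0.29 to 0.88 for *Setd1b*, -0.11 to 0.064 for *Setdb1*, -0.25 to 0.73 for *Nsd1*, -0.19 to 0.036 for *Ash2l*, -0.24 to 0.71 for *Arid2*, -0.14 to 0.43 for *Smarcd1*, -0.067 to 0.71 for *Chd7*, -0.094 to 0.20 for *L3mbtl2*, -0.11 to 0.52 for *Dot1l*, -0.13 to 0.19 for *Wdr5*, -0.27 to 0.090 for *Rbbp5* and -0.11 to 0.16 for *Kdm1a*. The differences in paralog ratio between the lines crossed 0 likewise, from -0.39 to 0.60 for *Smarca4* to *Smarca2*, -0.15 to 0.50 for *Arid1a* to *Arid1b*, -0.37 to 0.0075 for *Smarcc1* to *Smarcc2*, -0.22 to 0.42 for *Ezh2* to *Ezh1*, -0.19 to 0.59 for *Rnf2* to *Ring1*, -0.057 to 0.36 for *Cbx2* to *Cbx7*, -0.32 to 0.27 for *Setd1a* to *Setd1b* and -0.15 to 0.073 for *Ehmt1* to *Ehmt2*. The GC division and its alternatives were chosen after seeing the data. At the low end of depth *Bmi1* had from 9.38 to 56.8 normalized counts, and for no member were counting error and the spread between libraries separated.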
